A study of Mus musculus with 8 samples.

Results

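The genes examined here are 10 genes that mark the hepatocytes around the central vein or answer Wnt signalling there: Glul, Rhbg, Slc1a2, Slc1a4, Lgr5, Axin2, Nkd1, Sp5, Tbx3 and Rgn. They were taken by symbol from the gene tables, so they are 10 of the 55450 genes listed. RNA came from 8 mouse livers. The 4 control mice carried Cebpa fl/fl alleles and no Cre (Cre-), and the 4 knockout mice (Cre+, CebpaΔHep) had lost Cebpa, the gene of the transcription factor C/EBP alpha, in hepatocytes. The Cre line that drives the deletion is not given in the sources used here, nor is the sex of the mice. Both genotypes were 10 weeks old and matched for body weight, had 5 days on a liquid control diet, and then drank a liquid diet with 5% (vol/vol) ethanol for 4 weeks. Every value below is therefore from an ethanol-fed liver, and the comparison is knockout against control under ethanol.

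In the liver lobule, blood flows from the portal tract to the central vein, and hepatocytes differ in gene activity along that path. Endothelial cells of the central vein release Wnt ligands and R-spondin, which stabilize beta-catenin in the neighbouring hepatocytes. Beta-catenin then joins TCF/LEF factors on target genes. Hepatocytes nearest the vein make glutamine from glutamate and ammonia that escaped the urea cycle upstream, and Glul, the glutamine synthetase gene, is their best known marker. Axin2, Nkd1, Lgr5 and Sp5 are targets of the same signal in many tissues and feed back on it.

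Cebpa checked the genotype labels: it was at 264 to 320.3 CPM (counts scaled to library size, with TMM factors) in the controls and at 5.44 to 9.26 in the knockouts, 41.5-fold lower (edgeR quasi-likelihood test with Benjamini-Hochberg adjustment, adjusted p = 4.78e-07, n = 4 per group). The livers held 21048350 to 28148744 expected counts each. Control 2 and knockout 4 resembled their own group least, with a mean correlation of log2 CPM with their group of 0.974 and 0.977, against 0.979 to 0.981 for the other livers. Hepatocyte markers summed to 119487 to 143598 CPM in the controls and 125356 to 138022 in the knockouts, a sum made mostly of Alb, the albumin gene (62852 to 95904 and 85924 to 96109 CPM). Of the 12 hepatocyte markers 9 had a negative log2 fold change (median -0.26), 5 had an unadjusted p below 0.05, 4 had every knockout below every control, and 1, Serpina1a, was called lower (edgeR adjusted p = 0.00364). The shares over all tested genes were 18.5% at such a p, 5.92% with every knockout below and 1.21% called lower. The summed markers of bile duct cells were at 44.9 to 85.4 CPM in the controls and at 151 to 403 in the knockouts, with no overlap, and 5 of the 11 tested were called higher, among them Krt19, Epcam and Spp1. That count was 0 in the fits without control 3, control 4, knockout 1 or knockout 2, and 2 to 4 without another liver. All 11 bile duct markers had a positive log2 fold change (median 1.11) and an unadjusted p below 0.05. In 8 of them every knockout lay above every control. Of all tested genes, 5.52% had every knockout above, 18.5% had such a p and 0.849% were called higher. The ranges of the summed endothelial (214 to 266 against 256 to 335 CPM), stellate cell (171 to 337 against 290.0 to 574 CPM) and Kupffer cell (203 to 416 against 322 to 536 CPM) markers overlapped, and edgeR called 0 of their 17, 15 and 14 tested genes (3, 5 and 6 at an unadjusted p below 0.05, all 0 in DESeq2 except 1 Kupffer cell gene). The log2 fold changes of these lists were positive for 16 of 17, 15 of 15 and 14 of 14 genes (medians 0.22, 0.39 and 0.55), against 6743 of the 13303 tested genes. RNA typical of pancreas, fat, kidney and blood summed to 123 to 282 CPM in the controls and 127 to 223 in the knockouts. The part of cell makeup in the results was not tested, and in whole liver fewer cells of a type and less RNA per cell cannot be told apart.

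All 10 genes passed the filter on low counts. Of them, 1, Rhbg, was called higher in the knockouts at an adjusted p below 0.05 and 0 were called lower, where edgeR called 113 of all 13303 tested genes higher (0.849%) and 161 lower (1.21%), together 274 (2.06%). At an unadjusted p below 0.05 there were 2 of the 10, Rhbg and Slc1a2, against 18.5% of all tested genes. DESeq2, a second count test, called Rhbg higher and Slc1a2 lower, where it called 387 (2.60%) higher and 457 (3.07%) lower of the 14872 genes to which it gave an adjusted p. Its list counts below are over such genes. Rhbg was also the 1 gene of the 10 whose 4 knockout values all lay outside the control range, against 11.4% of all tested genes (5.52% with the knockouts above and 5.92% with them below). The log2 fold changes of the 10, knockout minus control, were positive for 4 and negative for 6, with a median of -0.03, and the median of all tested genes was 0.0036.

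**Figure D1:**
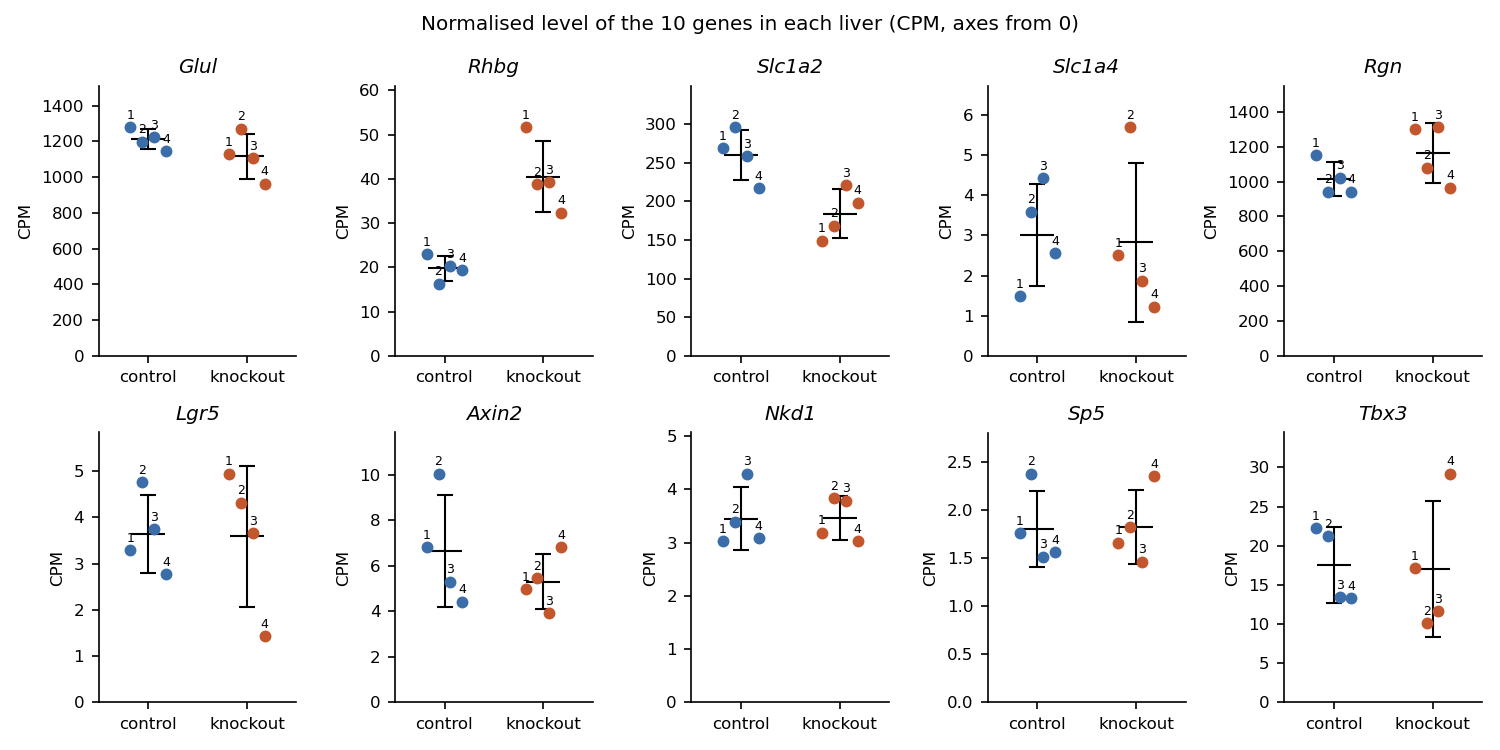
Level of each of the 10 genes in each liver, in CPM on linear axes from 0, with 1 numbered point per liver (blue for controls, orange for knockouts), the group mean as a horizontal line and the SD as an error bar. Rhbg is the gene whose knockout points, 32.4 to 51.7 CPM, all lie above its control points, 16.3 to 23.1 CPM.

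The 10 genes spanned a wide range of levels. On the TPM scale of transcript shares, which divides by gene length and so allows comparison between genes, the mean levels in the controls ran in the order Rgn, Glul, Slc1a2, Rhbg, Tbx3, Axin2, Nkd1, Sp5, Lgr5 and Slc1a4. Rgn was above 99.1% and Glul above 98.6% of the tested genes, and Slc1a4 above 15.3%. In the controls the neighbours Rgn and Glul, Glul and Slc1a2, Slc1a2 and Rhbg, Rhbg and Tbx3, and Nkd1 and Sp5 did not overlap over the 4 livers. Tbx3 and Axin2, Axin2 and Nkd1, Sp5 and Lgr5, and Lgr5 and Slc1a4 did overlap, so their order was within the spread between livers. The knockouts gave the same order, and there Nkd1 and Sp5 overlapped as well.

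The genes of ammonia and glutamate handling came first. Rhbg encodes an ammonia transporter of the Rhesus protein family, found on the sinusoidal face of pericentral hepatocytes (ENSMUSG00000104445.1, mm10 chromosome 3, 88242874 to 88254709, minus strand). Its control livers 1 to 4 were at 23.1, 16.3, 20.3 and 19.4 CPM, and its knockout livers 1 to 4 at 51.7, 38.9, 39.2 and 32.4 CPM. The lowest knockout thus stood above the highest control. Rhbg rose from 19.8 ± 2.78 to 40.5 ± 8.08 CPM (mean ± SD, n = 4 each), 2.05-fold with a 95% interval of 1.63 to 2.58 (log2 fold change 1.03, SE 0.15, edgeR adjusted p = 0.00947). Its p-value ranked 56 of the 13303 genes, and 79 genes (0.594%) were called higher with at least a 2-fold change. On the TPM scale Rhbg was at 15.9, 11.9, 14.8 and 13.6 in the controls and 38.9, 31.5, 28.9 and 25.2 in the knockouts. With each liver left out in turn, the log2 fold change of Rhbg stayed between 0.89 and 1.13, and the adjusted p between 0.00452 and 0.0378. The bile duct markers also did not overlap between the groups, and their part in the Rhbg difference was not tested. A predicted gene on the same strand, Gm38392, overlaps Rhbg and received 8.79 expected counts over all 8 livers.

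Slc1a2 encodes GLT-1, a high-affinity glutamate transporter (ENSMUSG00000005089.15, chromosome 2, 102658659 to 102790784, plus strand). Its RefSeq promoter window is shown with that of Sp5, because of the 6 genes of the 10 with a window in the table these were the ones holding a TCF/LEF motif, CTTTGAT or CTTTGAA on either strand. Each window is the 250 bases before the RefSeq transcription start (RefSeq, GRCm38.p6), 5′ to 3′ on the strand of the gene, with motif matches in capitals. The Slc1a2 window, chr2:102706188-102706437, lies inside the longer gene of the annotation. It holds ATCAAAG, the TCF/LEF motif CTTTGAT read on the other strand, at positions -207 to -201, and TTATGCAA, a match on the other strand to the C/EBP motif TTGCNNAA, at -158 to -151. The Sp5 window, chr2:70474673-70474922, holds CTTTGAT on the strand of the gene at -104 to -98.
Slc1a2: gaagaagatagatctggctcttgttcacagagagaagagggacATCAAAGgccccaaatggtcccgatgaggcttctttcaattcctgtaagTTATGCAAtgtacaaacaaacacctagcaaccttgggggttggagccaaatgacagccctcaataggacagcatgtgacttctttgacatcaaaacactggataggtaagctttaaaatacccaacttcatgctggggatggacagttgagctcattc
Sp5: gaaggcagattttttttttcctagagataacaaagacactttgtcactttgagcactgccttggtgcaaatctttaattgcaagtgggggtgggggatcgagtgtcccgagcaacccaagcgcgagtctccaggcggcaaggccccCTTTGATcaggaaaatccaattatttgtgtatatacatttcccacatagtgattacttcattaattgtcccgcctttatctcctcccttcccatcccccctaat
A TCF/LEF motif was found in 2 of the 6 windows (Glul, Slc1a2, Slc1a4, Axin2, Nkd1 and Sp5) and in 7.48% of all 32817 windows of that length, and the C/EBP motif in 1 of the 6 and in 9.57% of all. The motifs for the 2 factors do not share letters in the Slc1a2 window. A match describes the letters and shows no binding. The table has no window for Rhbg, Lgr5, Tbx3 or Rgn.

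In the controls Slc1a2 was at 268, 296, 258 and 217 CPM, and in the knockouts at 149, 168, 220.3 and 198 CPM. The groups overlapped through knockout 3, which stood just above control 4, and the other 3 knockouts were below every control. The means were 259.7 ± 32.6 and 183.9 ± 31.6 CPM (SD, n = 4), a log2 fold change of -0.50 (SE 0.14, 95% interval -0.81 to -0.19), which did not pass in edgeR (adjusted p = 0.103). DESeq2 called it lower (log2 fold change -0.51, adjusted p = 0.0209). On the TPM scale the difference was smaller, with 68.2, 64.3, 73.2 and 54.4 in the controls and 47.8, 56.9, 64.6 and 65.0 in the knockouts, a log2 difference of -0.15 by limma on log2(TPM + 1) (adjusted p = 0.53). The mean effective length that the authors' RSEM run used to turn counts into TPM was 4733, 5851, 4487 and 4882 bases in the controls and 4102, 4193, 4397 and 4151 in the knockouts. These lengths did not overlap between the groups. RSEM takes this length as the mean over the transcripts of a gene, weighted by their estimated shares. Slc1a2 was the 1 gene of the 10 with effective lengths that did not overlap, against 4.19% of tested genes, and against 1.41% where the group means also differed by at least 10%.

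**Figure D2:**
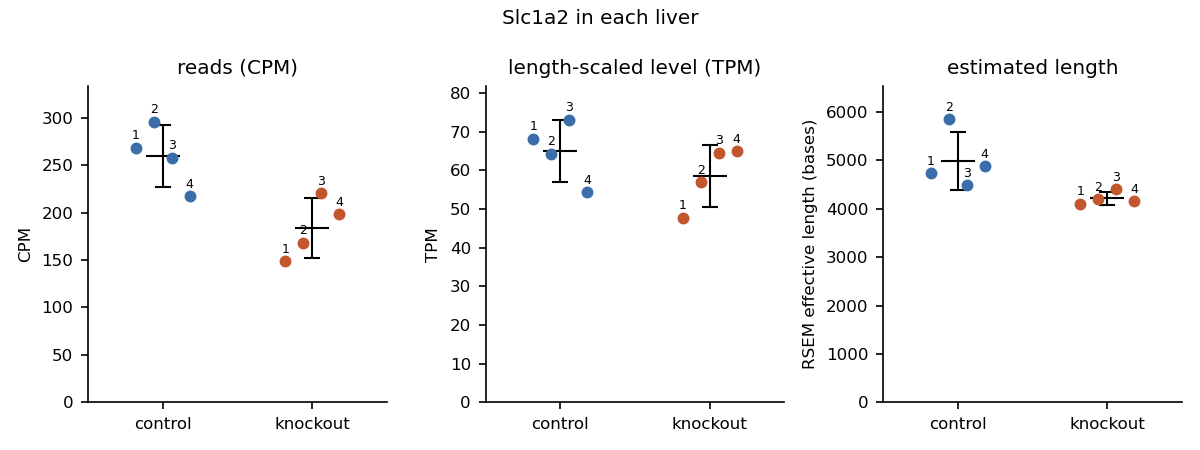
Slc1a2 in each liver in 3 panels: level in CPM, level in TPM, and RSEM effective length in bases, with 1 numbered point per liver, the group mean as a line and the SD as an error bar. The knockouts lie mostly below the controls in CPM, overlap them widely in TPM (47.8 to 65.0 against 54.4 to 73.2), and are all below them in effective length (4102 to 4397 against 4487 to 5851 bases).

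Glul, the synthetase that joins ammonia to glutamate (ENSMUSG00000026473.15, chromosome 1, 153899944 to 153909723, plus strand), was at 1279, 1199, 1224 and 1146 CPM in the controls and 1127, 1272, 1108 and 963 CPM in the knockouts. Knockout 4 was the lowest liver and knockout 2 the second highest of the 8, so the groups overlapped. The means of 1212 ± 55.7 and 1118 ± 126 CPM gave a log2 fold change of -0.12 (SE 0.11, edgeR adjusted p = 0.597), and its 95% interval, -0.36 to 0.12, holds both small falls and small rises. Its TPM means were 584.0 ± 26.5 and 584.4 ± 80.3. The gene Teddm2 overlaps Glul on the opposite strand, with 14 to 24 expected counts per control and 25 to 40 per knockout. Slc1a4 encodes ASCT1, an exchanger of alanine, serine and other small neutral amino acids (ENSMUSG00000020142.12, chromosome 11, 20302180 to 20332713, minus strand). It was at 1.49, 3.59, 4.42 and 2.56 CPM in the controls and 2.52, 5.70, 1.87 and 1.23 CPM in the knockouts. The highest and the lowest of its 8 values were both knockouts. Its log2 fold change was -0.09 with a 95% interval of -1.20 to 1.01 (edgeR adjusted p = 0.941), an interval that holds 2-fold differences in both directions.

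Rgn encodes regucalcin, a gluconolactonase of the mouse pathway to ascorbate (ENSMUSG00000023070.6, chromosome X, 20549787 to 20562089, plus strand). It was the most abundant of the 10 in TPM. In CPM it was at 1154, 943, 1023 and 943 in the controls and 1303, 1080.3, 1312 and 964 in the knockouts. Knockouts 1 and 3 were above every control and knockouts 2 and 4 were within their range. The means of 1015 ± 99.6 and 1165 ± 171 CPM did not differ beyond the spread between livers (log2 fold change 0.20, 95% interval -0.09 to 0.49, edgeR adjusted p = 0.448).

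None of the 5 response and feedback genes of the Wnt pathway passed the test in either direction, and all 5 overlapped between the groups. Axin2 is a scaffold of the complex that degrades beta-catenin and a standard reading of Wnt activity (ENSMUSG00000000142.15, chromosome 11, 108920349 to 108950783, plus strand). It was at 6.82, 10.04, 5.31 and 4.42 CPM in the controls and 4.99, 5.46, 3.93 and 6.82 CPM in the knockouts. Control 2 held the highest value, and its log2 fold change of -0.32 (95% interval -0.90 to 0.26, edgeR adjusted p = 0.545) became -0.05 without control 2. Sp5 is a zinc finger repressor and direct target of the pathway (ENSMUSG00000075304.2, chromosome 2, 70474923 to 70477729, plus strand), with the TCF/LEF motif of its window shown above. Sp5 was at 1.76, 2.38, 1.52 and 1.56 CPM in the controls and 1.66, 1.82, 1.46 and 2.35 CPM in the knockouts. As for Axin2, control 2 was the highest control and knockout 4 the highest knockout. Its log2 fold change was 0.03 (95% interval -0.49 to 0.54, edgeR adjusted p = 0.967).

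Lgr5 is a receptor for R-spondins (ENSMUSG00000020140.15, chromosome 10, 115450311 to 115587780, minus strand). It was at 3.29, 4.76, 3.75 and 2.78 CPM in the controls and 4.94, 4.31, 3.66 and 1.43 CPM in the knockouts. Knockout 4 was the lowest liver for Lgr5, as it was for Glul, and the log2 fold change was -0.03 (95% interval -0.78 to 0.72, edgeR adjusted p = 0.976). Nkd1 binds Dishevelled and dampens the signal (ENSMUSG00000031661.12, chromosome 8, 88521354 to 88594884, plus strand). It was at 3.02, 3.40, 4.30 and 3.08 CPM in the controls and 3.19, 3.84, 3.79 and 3.04 CPM in the knockouts. Its means, 3.45 ± 0.589 and 3.46 ± 0.411 CPM, were the closest of the 10 genes on the log2 scale (0.0036, 95% interval -0.38 to 0.39, edgeR adjusted p = 0.994).

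Tbx3 is a T-box transcriptional repressor and a target of the pathway in liver (ENSMUSG00000018604.18, chromosome 5, 119670669 to 119684724, plus strand). It was at 22.3, 21.3, 13.4 and 13.3 CPM in the controls and 17.2, 10.1, 11.7 and 29.2 CPM in the knockouts. Knockout 4 was the highest and knockout 2 the lowest of the 8 livers. The log2 fold change was -0.04 (95% interval -0.84 to 0.77, edgeR adjusted p = 0.970), and -0.44 without knockout 4. The antisense gene Tbx3os1, on chromosome 5 from 119570130 to 119671365 on the minus strand, overlaps the start of Tbx3. It was picked out after its values were seen. Tbx3os1 was at 6.63, 6.36, 5.86 and 7.20 CPM in the controls and 3.68, 2.69, 4.71 and 3.21 CPM in the knockouts, with no overlap. It fell 1.83-fold (log2 fold change -0.87, SE 0.18, edgeR adjusted p = 0.0402). That call was lost in 7 of the 8 fits with 1 liver left out (adjusted p up to 0.0948 without control 4). The call was kept in the fit without knockout 3. If strand was not used in the counting, reads from the stretch shared by Tbx3 and Tbx3os1 cannot be told apart.

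**Figure D3:**
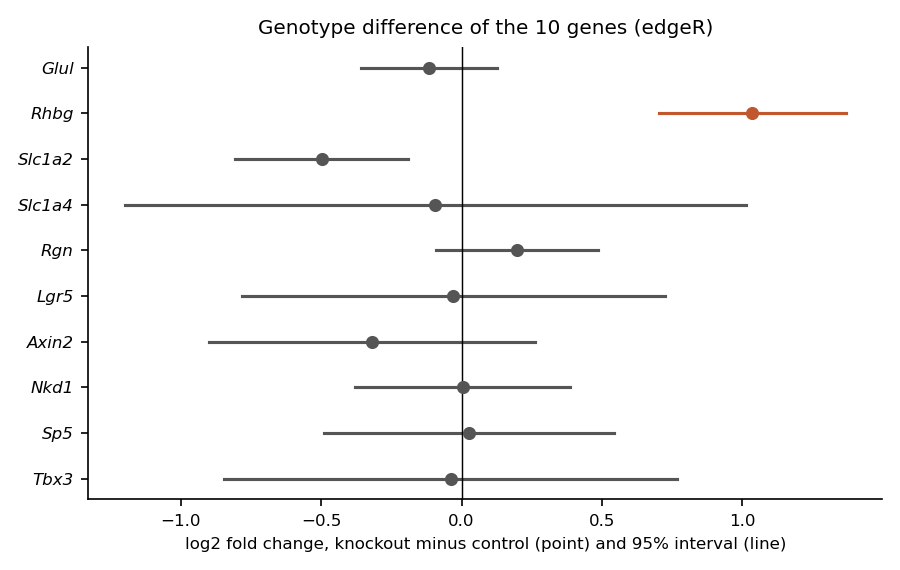
Log2 fold change, knockout minus control, of each of the 10 genes (point) with its 95% interval from edgeR (line), and the gene called in orange. The interval of Rhbg, 0.70 to 1.37, lies wholly above 0 and that of Slc1a2, -0.81 to -0.19, below it, although Slc1a2 did not pass after adjustment. The other 8 intervals cross 0.

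Genes upstream of these targets were measured from lists of the Wnt pathway. Beside the counts of these lists, 18.5% of all tested genes had an unadjusted p below 0.05. Of the ligands and the genes of their secretion, 9 of 25 were tested and 0 passed in either direction (2 at an unadjusted p below 0.05, median log2 fold change 0.09, and 9 of the 25 had no count in any liver). Rspo3, the R-spondin of the central vein, was at 4.27 ± 0.627 CPM in the controls and 4.94 ± 0.506 in the knockouts (edgeR adjusted p = 0.493), and Wnt5b, a ligand best known outside the beta-catenin branch, at 5.96 ± 1.13 and 5.26 ± 1.31 (adjusted p = 0.669). Wnt2 and Wnt9b, the ligands of the central vein endothelium, were picked out after their values were seen: Wnt2 was at 2.54 ± 0.160 and 2.22 ± 0.465 CPM (edgeR adjusted p = 0.612), and Wnt9b at 1.16 ± 0.527 and 1.35 ± 0.499 (adjusted p = 0.788). DESeq2 called 0 of the ligand list.

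Of the receptors and co-receptors, 13 of 19 were tested and 0 passed (2 at an unadjusted p below 0.05, against 18.5% of all, median -0.16). Lrp6, the co-receptor of the beta-catenin branch, was at 111 ± 6.68 and 114 ± 6.79 CPM (edgeR adjusted p = 0.828), and the receptor Fzd4 at 63.3 ± 10.04 and 60.1 ± 5.38 (adjusted p = 0.773). Of the transducers, 24 of 27 were tested and 0 passed (3 at an unadjusted p below 0.05, against 18.5% of all, median -0.11). Ctnnb1, the gene of beta-catenin itself, was at 187 ± 11.8 and 193 ± 8.23 CPM (log2 fold change 0.04, edgeR adjusted p = 0.797), and Csnk1a1, the kinase that primes beta-catenin for degradation, at 99.1 ± 5.89 and 102.8 ± 4.00 (adjusted p = 0.723). DESeq2 also called 0 receptors and 0 transducers.

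Of the inhibitors, 7 of 18 were tested and 0 passed in edgeR, and of the other response genes 12 of 17 were tested and 0 passed. An unadjusted p below 0.05 was found for 4 inhibitors and 6 response genes, against 18.5% of all tested genes. The median log2 fold changes were -0.02 and -0.21. Every knockout lay above every control in 1 inhibitor and 2 response genes, against 5.52% of all. Every knockout lay below every control in 1 gene of each list, against 5.92%. DESeq2 called 1 inhibitor higher and 1 lower, and 2 other response genes higher and 1 lower. Over all genes it called 2.60% higher and 3.07% lower. Log2 fold changes were positive for 3 of the 7 inhibitors and 5 of the 12 response genes. All of these had an unadjusted p below 0.05, and the 1 other gene at that p, Notum, was lower. The inhibitor Sfrp1 and the response genes Sox4 and Prom1 were picked out after their values were seen. Each had every knockout above every control but did not pass (edgeR adjusted p = 0.0783, 0.0825 and 0.0690). The bile duct markers also lay higher in the knockouts without overlap. The part of cell makeup in the differences of these lists was not tested. Notum, a secreted enzyme that strips the lipid from Wnt proteins and is itself induced by the pathway, stands in both lists. It was at 24.6, 37.5, 33.0 and 29.7 CPM in the controls and 21.2, 19.8, 23.5 and 18.2 CPM in the knockouts. All 4 knockouts were below every control. Its log2 fold change of -0.59 (SE 0.13, edgeR adjusted p = 0.0515) missed the threshold, which it passed in DESeq2 (adjusted p = 0.00381), without the filter on low counts (adjusted p = 0.0126) and without control 1 (adjusted p = 0.0292). That was 1 of the 8 edgeR fits with 1 liver left out, where adjusted p reached 0.136 (without knockout 2). With the replicate number as a block Notum did not pass (edgeR adjusted p = 0.0830). The corepressor gene Aes was at 456 ± 22.8 and 418 ± 35.6 CPM (adjusted p = 0.508), and Ccnd1, the cyclin D1 gene, at 32.7 ± 9.96 and 26.2 ± 12.1 (adjusted p = 0.686), both by edgeR.

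**Figure D4:**
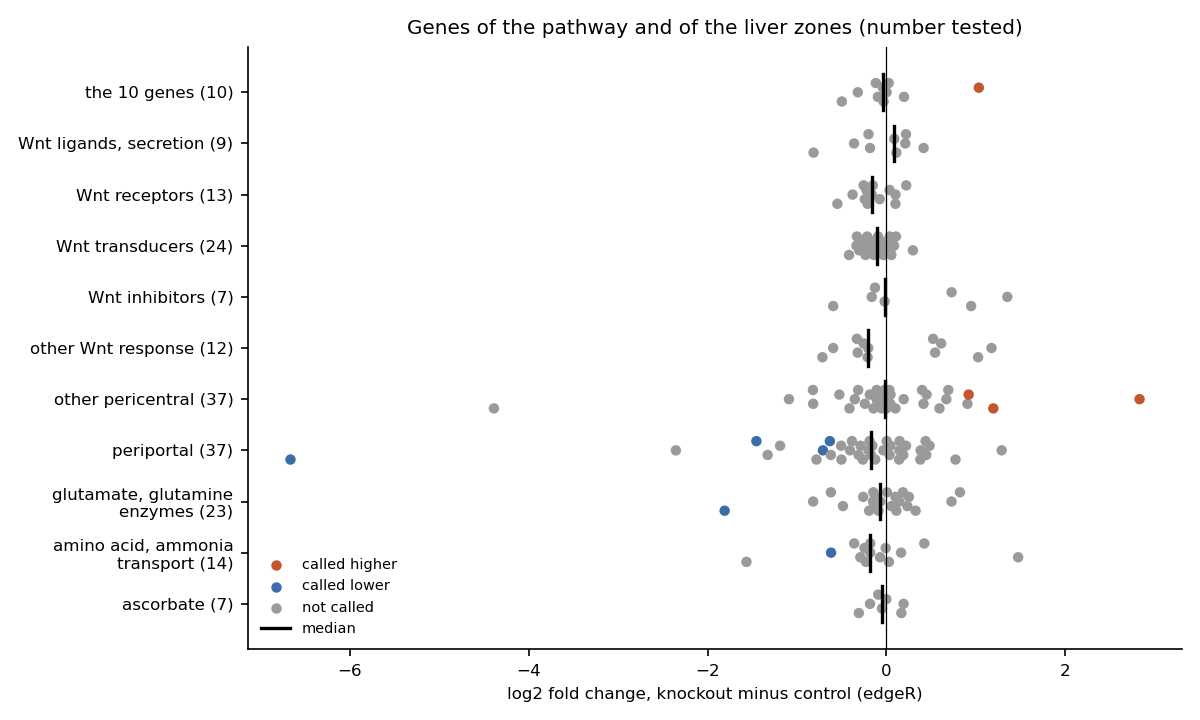
Log2 fold change, knockout minus control, of every tested gene among the 10 genes and in the Wnt lists, the zonal lists and the lists of glutamate, ammonia and ascorbate handling, with called genes in orange (higher) or blue (lower), others in grey, and each list's median as a line. The Wnt lists hold no called gene, the pericentral list holds 3 called higher, and the periportal list 4 called lower. All lists were chosen with earlier results of these data known.

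Like the other lists, the wider pericentral list was chosen with earlier results of these data known, so its counts are a description. All 37 genes of the list were tested. In it edgeR called 3 genes higher and 0 lower, against 0.849% and 1.21% of all tested genes, and 34 did not pass. There were 17 positive and 20 negative log2 fold changes, with a median of -0.02. An unadjusted p below 0.05 was found for 11, against 18.5% of all. Every knockout lay below every control in 2 and above in 3, against 5.92% and 5.52%. Mup17, picked out after its values were seen, had the largest change but did not pass. Its controls were at 162, 140, 9.90 and 34.0 CPM and its knockouts at 2.31 to 7.16 (log2 fold change -4.39, edgeR adjusted p = 0.0852). The expected counts of Mup17 summed to 7907.42, not a whole number, as RSEM divides shared reads. DESeq2 called 4 of the list higher and 3 lower. The 3 of edgeR were mu class glutathione transferases, which conjugate reactive compounds to glutathione. Gstm3 rose from 38.6 ± 7.12 to 275 ± 101 CPM (7.13-fold, edgeR adjusted p = 0.00165), Gstm2 from 32.7 ± 7.15 to 75.0 ± 22.6 (2.29-fold, adjusted p = 0.0327) and Gstm1 from 839.5 ± 133 to 1589.9 ± 357 (1.89-fold, adjusted p = 0.0274). Of the 8 fits with 1 liver left out, the call of Gstm1 was lost in 5 (adjusted p up to 0.0838 without control 4) and that of Gstm2 in 4 (up to 0.0913 without knockout 2). These paralogs are close in sequence, and RSEM divides the reads they share. The pericentral P450 genes Cyp2e1 and Cyp1a2 were picked out after their values were seen. Cyp2e1, whose enzyme oxidizes ethanol, was at 10713 ± 959 and 10677 ± 1455 CPM (adjusted p = 0.989), and Cyp1a2 at 292 ± 97.5 and 274 ± 56.4 (adjusted p = 0.872), both by edgeR.

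The periportal list, also 37 genes and all tested, held 0 called higher and 4 called lower, against 0.849% and 1.21% of all tested genes. It had 15 positive and 22 negative values and a median of -0.17. An unadjusted p below 0.05 was found for 16 of the 37, against 18.5% of all tested genes. Every knockout lay below every control in 11 and above in 1, against 5.92% and 5.52%. DESeq2 called 1 of the list higher and 8 lower. Igfals, the carrier of circulating IGF complexes, fell 1.55-fold (94.8 ± 5.73 to 61.2 ± 6.29 CPM, edgeR adjusted p = 0.00823). The alpha-1 antitrypsin genes Serpina1c and Serpina1e fell as well. Serpina1c went from 6777 ± 1232 to 2475 ± 612 CPM (2.74-fold, edgeR adjusted p = 0.00675), and Serpina1e from 1928 to 5952 CPM in the controls to 5.09 to 79.5 in the knockouts (adjusted p = 0.0405). Elovl2, which elongates polyunsaturated fatty acids, fell 1.63-fold (561 ± 99.5 to 343 ± 34.3 CPM, edgeR adjusted p = 0.0334). Of the 8 fits with 1 liver left out, the call of Serpina1e was lost in 7, all but that without knockout 4 (adjusted p up to 0.136 without knockout 2), and that of Elovl2 in 6 (up to 0.0847 without knockout 1). Read sharing among Serpina1 copies applies to both of those genes.

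Glutamate and glutamine metabolism around Glul held 1 gene called lower of 23 tested (26 listed) and 0 called higher, with 11 positive and 12 negative values. An unadjusted p below 0.05 was found for 6, against 18.5% of all tested genes. Every knockout lay below every control in 3 and above in 0, against 5.92% and 5.52%. Got1, the cytosolic aspartate aminotransferase that interconverts glutamate and aspartate, was at 157, 52.0, 181 and 139 CPM in the controls and 39.7, 35.2, 35.1 and 41.1 CPM in the knockouts. Control 2 stood far below the other 3 controls but above every knockout. Got1 fell 3.50-fold (log2 fold change -1.81, SE 0.34, edgeR adjusted p = 0.0409). The call held in the fit without control 2 (adjusted p = 4.91e-05) and was lost in each of the other 7 with 1 liver left out, where adjusted p reached 0.129 (the fit without knockout 2). It was lost in limma-voom as well (adjusted p = 0.0717). DESeq2 called 3 genes of the list lower and 1 higher. Cps1, which commits ammonia to the urea cycle, was at 2874 ± 405 and 1870 ± 307 CPM with no overlap between groups (log2 fold change -0.62, edgeR adjusted p = 0.0763), and passed in DESeq2 (adjusted p = 0.00225) and without the filter on low counts (adjusted p = 0.0312). Cps1 passed in 0 of the 8 edgeR fits with 1 liver left out (adjusted p 0.0732 to 0.174). It did not pass with the replicate number as a block (edgeR adjusted p = 0.129). Oat and Gls2 were picked out after their values were seen. Oat, a pericentral aminotransferase that yields glutamate semialdehyde from ornithine, was at 671 ± 196 and 380.3 ± 126 CPM (log2 fold change -0.82, edgeR adjusted p = 0.157, DESeq2 adjusted p = 0.0273), and Gls2, the periportal glutaminase, at 229 ± 42.9 and 253 ± 23.9 (adjusted p = 0.601).

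Of the other carriers of glutamate, glutamine and ammonia, 14 of 24 were tested, 0 were called higher and 1, Slc38a2, lower. An unadjusted p below 0.05 was found for 5, against 18.5% of all tested genes. Every knockout lay below every control in 2 and above in 1, against 5.92% and 5.52%. Slc38a2, a sodium-coupled importer of neutral amino acids, was at 155, 219.9, 207 and 217 CPM in the controls and 144, 129, 138 and 111 CPM in the knockouts. It fell 1.53-fold (log2 fold change -0.62, edgeR adjusted p = 0.0404). Its call was lost in 7 of the 8 fits with 1 liver left out (adjusted p up to 0.110 without knockout 2). The call was kept in the fit without control 1. DESeq2 called 1 gene of the list higher and 1 lower. Slc38a3, the glutamine carrier of hepatocytes, was at 1182 ± 165 and 1206 ± 354 CPM (edgeR adjusted p = 0.964). On the ascorbate pathway around Rgn, 7 of 8 genes were tested and 0 passed in either direction, with 0 at an unadjusted p below 0.05. Gulo, the last enzyme of that pathway, was at 392 ± 27.7 and 379 ± 52.1 CPM (adjusted p = 0.856), and Akr1a1, which makes gulonate, at 349 ± 24.2 and 399 ± 35.8 (adjusted p = 0.328), both by edgeR, and DESeq2 called 0 genes of the list.

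Paralogs of the 10 genes were looked up as a family background. Of 23 listed, 8 were tested and 0 passed in edgeR or in DESeq2. At an unadjusted p below 0.05 there were 2, against 18.5% of all tested genes. Lgr4, the R-spondin receptor related to Lgr5, was at 61.2, 57.3, 54.5 and 58.4 CPM in the controls and 53.4, 47.5, 47.1 and 50.2 CPM in the knockouts. All 4 knockouts were below every control, and the log2 fold change of -0.22 did not pass (edgeR adjusted p = 0.143). Tbx2, the relative of Tbx3, was at 1.95 ± 0.323 and 2.80 ± 0.344 CPM (log2 fold change 0.51, adjusted p = 0.194), and Axin1, the relative of Axin2, at 25.0 ± 4.90 and 21.2 ± 2.73 (adjusted p = 0.412), both by edgeR. The adjusted p of Slc1a5 was 0.628 and those of Sp1, Sp2, Sp3 and Sp4 were 0.489, 0.792, 0.904 and 0.927. The Rhesus relatives of Rhbg were too low to test, with 1 expected count for Rhag and 0 for Rhcg over all 8 livers.

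The tested genes whose log2 CPM followed a member most closely over the 8 livers were listed for Glul and Axin2, by Pearson correlation, as a description. For Glul they were Ssna1 (0.962), Gtdc1 (0.932), Tmem214 (0.927), Nat8f2 (0.917) and the predicted gene Gm10359 (0.912). For Axin2 they were Ptprk (0.971), Bhlhe41 (0.959), Nop14 (0.953), Emp2 (0.945) and Serpina10 (0.938). Control 2, the liver furthest from its group, held the highest value of Axin2 and of all 5 genes listed with it. A choice by correlation with Axin2 favours genes that are high in that liver. edgeR called 0 of these 10 genes between knockout and control. They were picked as the highest correlations among all tested genes, so the values carry no p.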

How the data were processed

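RNA was sequenced from 8 livers, 4 per genotype, with a stranded mRNA library kit, per the labels' protocols. Trimmomatic 0.36, STAR 2.5.1, Picard 1.84, RSEM 1.2.22, DESeq2 and mm10 are named in the submitters' processing notes. The deposited tables hold expected counts, which are RSEM estimates that divide shared reads, and the authors' TPM, scaled to effective length. No source used here gives the annotation release or strand setting. Each of the 55450 gene identifiers matched GENCODE M21, which gave coordinates.

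Expected counts were rounded and tested by edgeR 4.0.16 (R 4.3.3): filterByExpr (minimum count 10, total 15), which left 13303 genes, TMM scaling, robust quasi-likelihood test, two-sided, Benjamini-Hochberg adjustment over all of them, threshold 0.05. Levels are CPM of the unrounded counts, correlations used a prior count of 2, and intervals are for single genes, not adjusted. A count of 1 was worth 0.0355 to 0.0475 CPM. Alternatives used DESeq2 1.42.0 and limma 3.58.1. The steps were tested on simulated data.

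Groups and replicate numbers came from the titles. Nothing ties a number to a litter or day, and same-numbered deviations correlated at 0.207, 0.009, -0.024 and -0.067, so numbers were not used as pairs. No 2 livers of the same group agreed within sampling noise. Nothing states that libraries were prepared separately, and the labels give no batch, so p-values measure the spread between these livers.

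Members and lists were chosen with earlier results of these data known. Named were the members, called genes of each pathway list (at most 4 by adjusted p, filled to 2 by level), tested paralogs, 5 genes most like Glul and Axin2 each, and Cebpa. Of 58 named tested genes, 51 followed this rule and 7 were picked once values were known. Krt19, Epcam and Spp1 are examples of a marker list. Outside these counts, Mup17, Sfrp1, Sox4 and Prom1 were also named once values were known.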

Additional observations from a re-analysis of the deposited data

Results flagged for a closer look

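A single liver stood far from the other 3 of its group, by Dixon's criterion for 4 samples, in 10 of 116 sets of values tested, where chance flags about 1 in 20, and in 0 of the 20 sets of the 10 pericentral and Wnt genes themselves. The sets come from the same livers, and Emp2 was chosen for its likeness to Axin2, so the number of flags is no test against chance. Control 2 was the high one for Axin1 at 32.2 CPM (others 21.5 to 23.3), for Emp2 at 15.7 (3.34 to 4.42), for Gstm1 at 1039 (763 to 784) and for Serpina1e at 5952 (1928 to 2248). Control 1 was high for Wnt9b at 1.94 CPM (others 0.843 to 0.970) and low for Ccnd1 at 17.7 (37.5 to 37.8). Control 4 was high for Lrp6 at 121 CPM (others 107 to 109). Knockout 4 was low for Tbx2 at 2.28 CPM (others 2.92 to 3.02) and high for Serpina1c at 3385 (2084 to 2271). Knockout 2 was low for Fzd4 at 52.1 CPM (others 62.1 to 63.2).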

How the results depend on the processing

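Rhbg kept its direction and its call under all 19 alternatives, with log2 fold changes of 0.89 to 1.13 and adjusted p up to 0.0378. With the replicate number as a block, Rhbg was at 1.03 (adjusted p = 0.0106), 78 genes were called higher and 98 lower in place of 113 and 161, and the calls of Gstm2, Serpina1e, Got1, Slc38a2 and Tbx3os1 were lost (adjusted p = 0.124, 0.0749, 0.0981, 0.102 and 0.0849). DESeq2 called 387 genes higher and 457 lower, and 1 of the 10 pericentral and Wnt genes lower, Slc1a2. Without control 2 and knockout 4 together, a choice made after seeing the data, 185 were called higher and 246 lower. Leaving out 1 liver at a time gave 46 (without knockout 1) to 167 (without knockout 4) higher and 61 (without knockout 2) to 205 (without knockout 4) lower. Limma called 151 higher and 86 lower on log2(TPM + 1) and 144 and 84 on log2(TPM + 0.1), and scaling by library size alone gave 161 and 115, so the share called higher moved from 41.2% to 63.7%, 63.2% and 58.3%. The median log2 fold change of all genes was 0.09, 0.12 and 0.07 under these 3, against 0.0036, and changes are relative to it. Calls were also lost without the filter on low counts (Gstm2, Serpina1e and Got1, adjusted p = 0.0678, 0.0720 and 0.101), with library size alone (Got1 and Slc38a2, 0.0502 and 0.0522), in limma-voom (Got1, 0.0717), on log2(TPM + 1) (Elovl2, Got1, Slc38a2 and Tbx3os1, 0.0751, 0.0619, 0.0964 and 0.0548), on log2(TPM + 0.1) (the same 4 genes, 0.0750, 0.0655, 0.0942 and 0.0591) and without control 2 and knockout 4 (Gstm2, Elovl2, Slc38a2 and Tbx3os1, 0.0789, 0.0534, 0.0743 and 0.0759). The cause was not tested.

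Values with another sign, none of them called, were as follows. Library size alone gave Lgr5 0.034, Tbx3 0.035, Gulo 0.020, Tmem214 0.00061, Ptprk 0.0042 and Cyp2e1 0.063. Nkd1 was at -0.0015 without the filter on low counts and -0.0066 in DESeq2, Cyp2e1 at 0.0026 with at least 1 CPM in 4 livers, and Slc38a3 at -0.018 with the block and -0.012 with limma-voom. On log2(TPM + 1) and log2(TPM + 0.1) the values were -0.043 and -0.067 for Nkd1, 0.044 and 0.048 for Fzd4, 0.055 and 0.056 for Gulo, 0.0081 and 0.016 for Sp2, 0.0077 and 0.0077 for Tmem214, 0.063 and 0.067 for Ptprk, 0.10 and 0.10 for Cyp2e1 and 0.080 and 0.081 for Cyp1a2. Without control 2 and knockout 4 they were 0.26 for Slc1a4, 0.39 for Lgr5, -0.024 for Lrp6, 0.017 for Gulo, -0.028 for Sp3, 0.0085 for Tmem214, 0.0030 for Nop14 and 0.14 for Cyp1a2. With 1 liver left out, Nkd1 ranged from -0.061 to 0.13, Tbx3 from -0.44 to 0.15, Cyp1a2 from -0.24 to 0.070, Lgr5 from -0.23 to 0.24, Ptprk from -0.15 to 0.052, Nop14 from -0.13 to 0.026, Emp2 from -0.9997 to 0.015, Slc1a4 from -0.70 to 0.17, Sp5 from -0.13 to 0.18, Slc38a3 from -0.096 to 0.22, Sp4 from -0.057 to 0.13, Cyp2e1 from -0.11 to 0.032, Fzd4 from -0.16 to 0.0042, Sp3 from -0.053 to 0.10, Lrp6 from -0.0060 to 0.072, Gulo from -0.10 to 0.043 and Tmem214 from -0.14 to 0.0065. With 4 livers a group and these depths, among the members not called the 95% intervals of Slc1a2, Slc1a4, Lgr5, Axin2 and Tbx3 reached past 1.5-fold. That of Rhbg, which was called, ran from 1.63-fold to 2.58-fold.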
